A study of Mus musculus with 22 samples.

Results

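Genes known from lipid-associated macrophages were followed in inguinal white adipose tissue (IWAT): Trem2, Gpnmb, Spp1, Itgax, Mmp12, Atp6v0d2, Cd9, Lgals3 and Fabp5. These 9 genes were chosen by name, with earlier results of these data known. They are 9 of the 23420 gene symbols in the count table, and all 9 passed the filter on low counts that 14458 symbols passed. RNA was sequenced from both inguinal pads of wildtype C57Bl/6 female mice that had eaten chow (lean, 5 mice) or a high-fat diet (HFD; obese, 6 mice) for 16 weeks. E0771 cells, a mouse mammary cancer line derived from the same strain, had been placed with Matrigel in the left pad, and PBS with Matrigel alone in the right pad of the same animal. The pads were collected 2 weeks later, which gave 4 groups: lean control IWAT (n = 5), tumor-associated IWAT of lean mice (n = 5), obese control IWAT (n = 6) and obese tumor-associated IWAT (n = 6). Per the methods of the study, the lymph node and a thin layer of fat around the tumor were removed before RNA was prepared. By that protocol the tumor-associated samples are fat near a tumor. Whether any tumor cells remained in these samples was not tested. Every control pad came from a mouse that carried a tumor on the other side. The same mouse number in lean and obese groups denotes different animals. The paper reports larger tumors in obese than in lean mice, so comparisons between diets also compare mice with larger and smaller tumors. The part of tumor size in those comparisons was not tested.

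In obese adipose tissue, macrophages gather around dying adipocytes, take up the lipid that these release and digest it in lysosomes. Such lipid-associated macrophages are known for the lipid receptor TREM2, which signals through the adaptor TYROBP, and for a set of genes that TREM2 signaling helps to switch on. Similar programs are known in foam cells of the artery wall and in macrophages of tumors. None of the 9 genes is particular to macrophages: Cd9 and Lgals3 are widely expressed, Fabp5 is found in adipocytes and epithelium, Itgax marks dendritic cells as well, Atp6v0d2 and Spp1 are prominent in osteoclasts, and Spp1, Cd9 and Lgals3 are made by many tumor cells.

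Between 5759775 and 8598108 counts were assigned to genes per library (median 6953882). A further 38.5% to 48.8% of the counted reads lay in no annotated gene. Levels are given as CPM, the counts of a gene in proportion to the counts of the whole library, scaled by trimmed mean of M-values (TMM), whose factors lay between 0.930 and 1.07. The obese tumor-associated libraries of 3 mice (0, 2 and 4) stood apart by a list of 10 germline and embryonic genes, which an earlier look at these libraries had picked after values were seen. Their summed level was 441, 509 and 1000 CPM, against 40.1, 171 and 102 CPM in mice 1, 3 and 8 and at most 85.7 CPM in the other groups. A second pair of libraries, the obese control pads of mice 1 and 3, stood apart by 7 lymphocyte markers, which summed to 525 and 458 CPM against at most 53 CPM in the other libraries except the obese tumor-associated pad of mouse 3, at 126 CPM. Tests of the 9 genes whose call depends on either set of libraries are given below with and without them. In bulk tissue, fewer cells of a type and less RNA per cell cannot be told apart.

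The genes lie on 8 chromosomes of the GRCm38 (mm10) mouse genome, by the GENCODE M21 annotation. Trem2 occupies chr17:48346401-48354147 on the plus strand, Gpnmb chr6:49036546-49070929 plus, Itgax chr7:128129547-128150657 plus and Cd9 chr6:125460266-125494791 minus. Spp1 occupies chr5:104435118-104441050 plus, Mmp12 chr9:7344381-7369499 plus and Lgals3 chr14:47367751-47386160 plus. Atp6v0d2 occupies chr4:19876841-19922605 minus and Fabp5 chr3:10012548-10016607 plus. All 9 code for proteins, and their counts are sums over exons. Mmp12 overlaps Mmp1b on the other strand, and Cd9 overlaps the antisense transcripts Gm28809 and Gm26728. Whether reads were counted by strand is not given in the sources used here, so reads from such partners may be included. Fabp5 shares 336 to 409 bases at 93.6% to 98.3% identity with 5 copies that were not analysed here (Fabp5l2, Gm13998, Gm14328, Gm6100 and Gm6166), and Itgax shares 758 bases at 95% identity with its neighbor in the integrin family, Itgad. Spp1 overlaps Gm42793 on its own strand over 181 bases. Stretches of at least 100 bases at 90% identity or more are shared by 613 other genes with Cd9 and by 124 with Mmp12, and by 0 with Trem2, Gpnmb, Atp6v0d2 and Lgals3. Levels of Fabp5, Itgax, Itgad, Spp1, Cd9 and Mmp12 are uncertain to that extent.

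Because 7 of the 9 genes were higher together in obese control IWAT, as described below, promoters of the 9 were read for 4 short motifs of factors known from macrophages. The windows are not those of the 7 alone, since Cd9 is included and Atp6v0d2 is not, and Spp1 and Mmp12 each count with a second start. The RefSeq promoter table (GRCm38.p6; 250 bases before to 50 after each start) held 9 windows for 7 of the 9 genes, and none for Atp6v0d2 and Fabp5. Of these, 4 windows are shown 5′ to 3′ on the strand of the gene, for the lipid receptor Trem2, for Spp1, and for both genes with an AP-1 motif at their first listed start. Capitals mark a match, and TTCCTC and TGACTCA are the letters of GAGGAA and TGAGTCA on the other strand.
Trem2, chr17:48346151-48346450: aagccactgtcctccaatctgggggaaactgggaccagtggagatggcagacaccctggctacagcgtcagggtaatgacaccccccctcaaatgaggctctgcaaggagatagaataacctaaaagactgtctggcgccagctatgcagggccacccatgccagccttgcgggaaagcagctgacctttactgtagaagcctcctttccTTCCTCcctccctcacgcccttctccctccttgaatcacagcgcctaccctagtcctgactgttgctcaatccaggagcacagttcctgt
Spp1, chr5:104434861-104435160: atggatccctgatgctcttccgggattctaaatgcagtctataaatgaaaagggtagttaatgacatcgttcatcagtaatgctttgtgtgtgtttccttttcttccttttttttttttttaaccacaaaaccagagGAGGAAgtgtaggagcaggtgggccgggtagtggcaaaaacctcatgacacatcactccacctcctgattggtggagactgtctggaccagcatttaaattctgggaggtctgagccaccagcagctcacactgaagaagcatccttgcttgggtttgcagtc
Gpnmb, chr6:49036268-49036567: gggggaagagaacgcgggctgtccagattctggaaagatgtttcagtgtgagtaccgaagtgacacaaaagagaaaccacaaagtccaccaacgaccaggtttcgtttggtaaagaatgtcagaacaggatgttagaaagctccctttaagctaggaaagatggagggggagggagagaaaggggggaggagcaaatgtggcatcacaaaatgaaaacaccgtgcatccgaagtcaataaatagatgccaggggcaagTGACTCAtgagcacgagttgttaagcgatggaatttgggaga
Itgax, chr7:128129300-128129599: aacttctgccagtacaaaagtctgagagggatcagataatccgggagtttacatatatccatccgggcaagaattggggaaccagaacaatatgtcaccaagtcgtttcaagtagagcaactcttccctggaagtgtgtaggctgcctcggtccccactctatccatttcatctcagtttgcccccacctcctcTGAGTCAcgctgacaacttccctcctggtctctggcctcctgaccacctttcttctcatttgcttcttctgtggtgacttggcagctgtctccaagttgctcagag

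GAGGAA, the core letters of sites for PU.1, the master factor of the myeloid lineage, was in 3 of the 9 windows (Trem2, Spp1 and Mmp12), and 28.3% of all 32851 mouse promoter windows in the table held it. TGAGTCA, the site of AP-1, was in 3 of the 9 (Gpnmb, Itgax and the second Mmp12 start), against 5.2% of all windows. CATGTG and CACGTG, letters bound by MITF and its relatives TFEB, TFE3 and TFEC, were in 2 windows (Cd9 and the second Mmp12 start) and in 0 windows, against 14.2% and 7.15%. The matches did not overlap one another, and a match describes the sequence only.

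Trem2, the lipid receptor, was lowest in lean control IWAT. Its CPM there was 0.813, 1.4, 1.84, 2.11 and 2.54 in mice 0, 2, 3, 6 and 9, from 7 to 15 counts a library. In lean tumor-associated IWAT it was 15.4, 7.15, 4.48, 1.8 and 3.86 in the same mice, so that mouse 0 stood highest and mouse 6 fell inside the control range. In obese control IWAT it ran from 8.50 to 27.6 with a median of 15.0, and in obese tumor-associated IWAT from 11.2 to 64.6 with a median of 37.6. Every obese control library lay above every lean control library, and the pads of obese mice overlapped. Mean levels were 1.74 ± 0.665 (SD, n = 5), 6.55 ± 5.33 (n = 5), 15.9 ± 6.57 (n = 6) and 37.3 ± 19.2 (n = 6) CPM in lean control, lean tumor-associated, obese control and obese tumor-associated IWAT.

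Gpnmb codes for a glycoprotein of lysosomal and melanosomal membranes that macrophages make when loaded with lipid. Its CPM in lean control IWAT was 24.4, 13.3, 13.2, 10.7 and 34.4 in mice 0, 2, 3, 6 and 9. The matching tumor-associated pads held 50.1, 28.8, 13.9, 6.31 and 29.2 CPM, spread over and beyond the control range. In obese mice it ran from 75.3 to 250 CPM (median 148) in control IWAT and from 102 to 347 CPM (median 168) in tumor-associated IWAT. The obese libraries lay above all 10 lean libraries, and the pads of obese mice overlapped over most of their range.

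Itgax codes for CD11c, an integrin chain that pairs with CD18 and marks the inflammatory macrophages of obese fat as well as dendritic cells. In lean control IWAT it was 13.2, 37.3, 10.1, 14.4 and 36.3 CPM in mice 0, 2, 3, 6 and 9, with mice 2 and 9 far above the rest. In lean tumor-associated IWAT it was 14.4, 19.3, 13.9, 16.5 and 15.8 CPM, a narrow range. In obese mice it ran from 33.8 to 54.6 CPM (median 41.9) in control IWAT and from 29.7 to 76.2 CPM (median 54.0) in tumor-associated IWAT. The obese and lean control groups overlapped through the lean pads of mice 2 and 9.

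Cd9, a tetraspanin of the plasma membrane and of secreted vesicles, was the most even of the 9 genes outside obese tumor-associated IWAT. Its CPM was 145, 118, 131, 146 and 122 in lean control pads of mice 0, 2, 3, 6 and 9, and 148, 149, 171, 160 and 152 in their tumor-associated pads. The tumor-associated pad lay above the control pad in 5 of 5 lean mice. Obese control pads of mice 0, 1, 2, 3, 4 and 8 held 134, 83.7, 149, 85.3, 136 and 130 CPM, with mice 1 and 3 below every lean library. The obese tumor-associated pads of the same mice held 264, 122, 277, 179, 488 and 168 CPM, a spread of 122 to 488 in which mice 0, 2 and 4 were highest.

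Spp1 codes for osteopontin, a secreted matrix protein and cytokine that binds integrins and CD44. It was near the bottom of detection in lean control IWAT, with 1.05, 2.1, 3.52, 1.41 and 2.71 CPM in mice 0, 2, 3, 6 and 9 from 8 to 23 counts. Lean tumor-associated pads held 14.8, 4.04, 1.9, 1.16 and 3.71 CPM, of which mouse 0 stood far above the other 4. Obese control pads of mice 0, 1, 2, 3, 4 and 8 held 17.6, 8.04, 45.5, 7.75, 8.13 and 17 CPM, with mouse 2 highest. The obese tumor-associated pads held 278, 40.2, 241, 133, 391 and 122 CPM in the same order, above their own control pad in 6 of 6 mice. The lowest of them, mouse 1 at 40.2, was below the obese control pad of mouse 2.

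Mmp12, the macrophage metalloelastase, was 0.813, 12.9, 4.44, 7.04 and 17.5 CPM in lean control pads of mice 0, 2, 3, 6 and 9, a wide spread that rests on 7 to 103 counts. It was 6.97, 6.37, 5.71, 3.73 and 5.1 CPM in their tumor-associated pads. Obese control pads ran from 50.9 to 134 CPM (median 78.5), above every lean library. Obese tumor-associated pads ran from 20.3 (mouse 4) to 283 CPM (mouse 8) with a median of 102, wider than the control pads on either side.

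Lgals3 codes for galectin-3, a lectin that macrophages secrete and that gathers on damaged lysosomes. Its CPM was 79.1, 55.5, 77.6, 60.9 and 67.0 in lean control pads of mice 0, 2, 3, 6 and 9 and 122, 101, 94.4, 59.5 and 72.1 in their tumor-associated pads. Obese control pads held 147 to 349 CPM (median 207) and obese tumor-associated pads 361 to 591 CPM (median 425). Lgals3 was the single gene of the 9 whose obese groups did not overlap.

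Atp6v0d2 codes for a subunit of the vacuolar proton pump that acidifies lysosomes and is enriched in osteoclasts and macrophages. It was 1.39, 2.8, 1.53, 1.58 and 3.56 CPM in lean control pads of mice 0, 2, 3, 6 and 9, and 6.06, 3.89, 1.77, 0.901 and 2.93 CPM in their tumor-associated pads. Obese control pads held 19.7 to 54.0 CPM (median 34.8) and obese tumor-associated pads 8.52 to 70.9 CPM (median 33.7), so that diet separated the groups and the pads overlapped.

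Fabp5, a carrier of fatty acids in the cytosol, showed no such order. Its CPM was 88.3, 99.9, 134, 219 and 86.5 in lean control pads of mice 0, 2, 3, 6 and 9 and 78.0, 56.9, 72.8, 125 and 67.0 in their tumor-associated pads, lower in each of the 5 mice. Obese control pads held 86.0 to 212 CPM (median 124) and obese tumor-associated pads 45.3 to 182 CPM (median 108). All 4 groups overlapped.

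**Figure D1:**
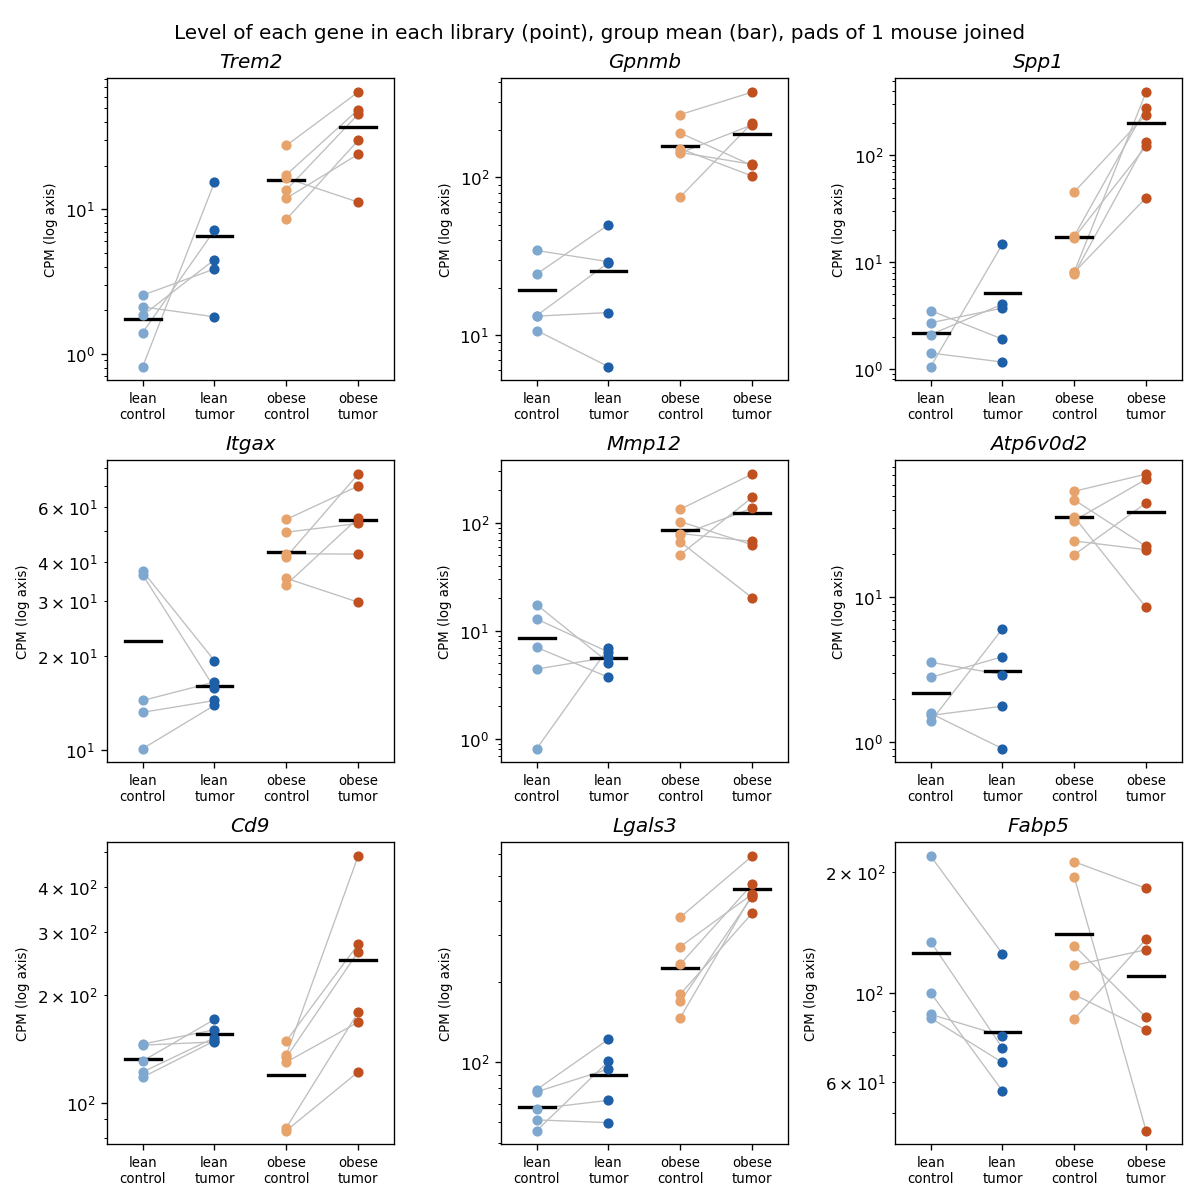
Level of each of the 9 genes in CPM (vertical log axis) in the 22 libraries, with groups on the horizontal axis, a point for each library, a black bar for the group mean and grey lines joining the pads of 1 mouse. All 6 obese control points of Trem2, Gpnmb, Spp1, Mmp12, Atp6v0d2 and Lgals3 lie above all 5 lean control points. Those of Itgax, Cd9 and Fabp5 overlap the lean control points.

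The effect of diet without a tumor in the pad was read from control IWAT, obese against lean. Of the 9 genes, 7 were higher in obese mice and 0 were lower, at an adjusted p under 0.05 in edgeR's quasi-likelihood test with Benjamini-Hochberg adjustment over all 14458 genes. Over all genes tested, 9.54% were called higher and 7.53% lower. In 6 of the 9, every obese control library lay above every lean one, which 7.44% of all genes tested did. The median log2 fold change of the 9 genes was 3.02, against 0.04 over all genes tested. With upper-quartile scaling the share of all calls that were higher was 42.5% in place of 55.9%, and 7 of the 9 genes were still called.

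Atp6v0d2 rose most, by 4.05 on the log2 scale (standard error 0.547, 16.6-fold, adjusted p = 5.63e-05). Mmp12 rose 10.2-fold (log2 3.35, standard error 0.598, adjusted p = 0.000758) and Trem2 9.21-fold (log2 3.20, standard error 0.533, adjusted p = 0.000407). Gpnmb and Spp1 rose by similar factors, 8.25-fold (adjusted p = 0.000204) and 8.14-fold (adjusted p = 0.00673). Without obese control mouse 2, its highest library, the log2 fold change of Spp1 was 2.45 in place of 3.02, and Spp1 was still called. Lgals3 rose 3.30-fold (95% interval of the log2 value 1.28 to 2.17, adjusted p = 2.53e-05). Itgax had the smallest called change, 1.93-fold (log2 0.95, 95% interval 0.34 to 1.57, adjusted p = 0.0313).

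The remaining pair did not pass. Cd9 differed by -0.15 on the log2 scale (95% interval -0.66 to 0.36, adjusted p = 0.734) and Fabp5 by 0.16 (95% interval -0.52 to 0.83, adjusted p = 0.79). The Itgax call was lost without lean control mouse 0, 3 or 6 (adjusted p = 0.0881, 0.0831 and 0.0892) or without obese control mouse 1 or 8 (0.0585 and 0.0615). It was also lost without the obese control pads of mice 1 and 3, which were highest in lymphocyte markers (log2 0.90, adjusted p = 0.0842), and in a fit of the control groups alone (log2 0.96, adjusted p = 0.0543). In those pads 8 dendritic cell markers summed to 149 and 164 CPM against 43.8 to 51.2 CPM in the other obese control pads, and their part in the Itgax level was not tested.

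Within tumor-associated IWAT, 8 of the 9 genes were higher in obese than in lean mice and 0 were lower, with Fabp5 the exception. Over all genes tested, 24.7% were called higher and 22.4% lower, and 11% lay wholly above the lean range, as 6 of the 9 genes did. The median log2 fold change of the 9 was 2.51, against 0.03 over all genes. Spp1 was 39.5-fold higher (log2 5.30, standard error 0.697, adjusted p = 1.59e-05). Without the obese pads of mice 0, 2 and 4 its log2 fold change was 4.28 (adjusted p = 0.000246), below that of Mmp12 (5.15) and level with that of Atp6v0d2 (4.30). Mmp12 was 22.2-fold higher (log2 4.47, adjusted p = 2.82e-05) and Atp6v0d2 12.6-fold higher (log2 3.66, adjusted p = 3.05e-05). Gpnmb, Trem2, Lgals3 and Itgax were 7.33-, 5.71-, 4.98- and 3.41-fold higher, with adjusted p of 8.42e-05, 0.000312, 1.06e-06 and 0.000142. Fabp5 differed by 0.46 on the log2 scale (95% interval -0.22 to 1.13, adjusted p = 0.258), and by 0.89 without the obese pads of mice 0, 2 and 4 (adjusted p = 0.0501).

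Cd9 was 1.60-fold higher in obese tumor-associated IWAT (log2 0.68, 95% interval 0.16 to 1.19, adjusted p = 0.0301), and that call rested on few libraries. Without the pads of mice 0, 2 and 4, which were highest in germline genes, its log2 fold change was 0.0005 (adjusted p = 0.998). Without mouse 4 alone it was 0.37 (adjusted p = 0.126). The call was also lost, at log2 values of 0.65 to 0.67, without obese tumor-associated mouse 0 or 2 or lean tumor-associated mouse 0, 2 or 9, and was lost with upper-quartile scaling (log2 0.56, adjusted p = 0.0541) and in a fit of the tumor-associated groups alone (log2 0.66, adjusted p = 0.0952). The other 7 genes were still called without the 3 pads, with log2 fold changes from 2.06 (Itgax) to 5.15 (Mmp12).

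The effect of a nearby tumor in lean mice was read from the left against the right pad. None of the 9 genes passed (0 higher, 0 lower) at an adjusted p under 0.05 in edgeR, where 3.27% of all genes were called higher and 0.913% lower. At an unadjusted p under 0.05 the count was 1, and DESeq2 called 1, in both cases Trem2. Trem2 was 3.79-fold higher in tumor-associated IWAT (log2 1.92, 95% interval 0.78 to 3.06, adjusted p = 0.0505), higher in 4 of 5 mice. Its adjusted p was 0.007 in DESeq2, 0.0471 in a fit of the lean groups alone, 0.0175 without lean tumor-associated mouse 6, 0.0249 without the 3 obese pads highest in germline genes and 0.117 with the mouse as a block. Without lean tumor-associated mouse 0, the highest library of that group, the log2 fold change of Trem2 was 1.30. Without both pads of that mouse it was 1.12, and Trem2 was called in neither fit. Among all alternatives its adjusted p reached 0.408. The share of all calls that were higher was 78.2% in edgeR, 67.9% in DESeq2 and 65.7% with upper-quartile scaling.

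Spp1 was 2.37-fold higher in lean tumor-associated IWAT, with an interval that spanned 0 on the log2 scale (-0.39 to 2.88, adjusted p = 0.509) and a higher value in 3 of 5 mice. Cd9 was the single gene of the 9 whose lean groups did not overlap, which 5.33% of all genes tested did, but the difference was small (1.18-fold, adjusted p = 0.815). Fabp5 was lower in 5 of 5 mice (log2 -0.65, 95% interval -1.35 to 0.06, adjusted p = 0.371). Gpnmb, Itgax, Mmp12, Atp6v0d2 and Lgals3 had log2 differences from -0.59 (Mmp12) to 0.52 (Atp6v0d2).

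In obese mice, the tumor-bearing pad held more Trem2, Spp1, Cd9 and Lgals3 than the control pad, and 0 of the 9 genes were lower. These 4 of 9 stand beside 26.8% of all genes tested called higher and 27.7% lower. Spp1 changed most, 11.5-fold (log2 3.52, standard error 0.576, 95% interval 2.33 to 4.72, adjusted p = 8.22e-05). Trem2 was 2.35-fold higher (log2 1.23, standard error 0.416, adjusted p = 0.0173) and was higher in 5 of 6 mice, mouse 4 being the exception. Cd9 was 2.08-fold higher (log2 1.06, standard error 0.236, adjusted p = 0.00107) and Lgals3 1.99-fold higher (log2 0.99, standard error 0.196, adjusted p = 0.000416), both in 6 of 6 mice. Lgals3 lay wholly above its control range, as 9.95% of all genes tested did.

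The remaining 5 genes did not pass in obese mice. Gpnmb and Atp6v0d2 differed by 0.24 and 0.12 on the log2 scale (95% intervals -0.59 to 1.06 and -0.74 to 0.98), each higher in 3 of 6 mice. Mmp12 differed by 0.54 (95% interval -0.47 to 1.55) and Itgax by 0.34 (95% interval -0.22 to 0.91). Fabp5 differed by -0.35 (95% interval -0.99 to 0.29). Without the pads of mice 0, 2 and 4, Spp1 was called at a log2 fold change of 2.49 (adjusted p = 0.00409), Trem2 at 1.55 (0.0114) and Lgals3 at 1.08 (0.00268). In that fit Cd9 was not called (0.38, adjusted p = 0.0887), Mmp12 was called higher (1.21, adjusted p = 0.0348) and Fabp5 differed by 0.08. Gpnmb, Atp6v0d2 and Itgax differed there by 0.71, 0.75 and 0.62 and were not called (adjusted p = 0.22, 0.105 and 0.119).

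The Trem2 call in obese mice was lost without tumor-associated mouse 8 (log2 1.00, adjusted p = 0.0508) and without both pads of mouse 0 (1.16, adjusted p = 0.0553) or mouse 1 (1.11, adjusted p = 0.0506). It was also lost without the control pads of mice 1 and 3, the pads highest in lymphocyte markers (1.02, adjusted p = 0.0747).

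**Figure D2:**
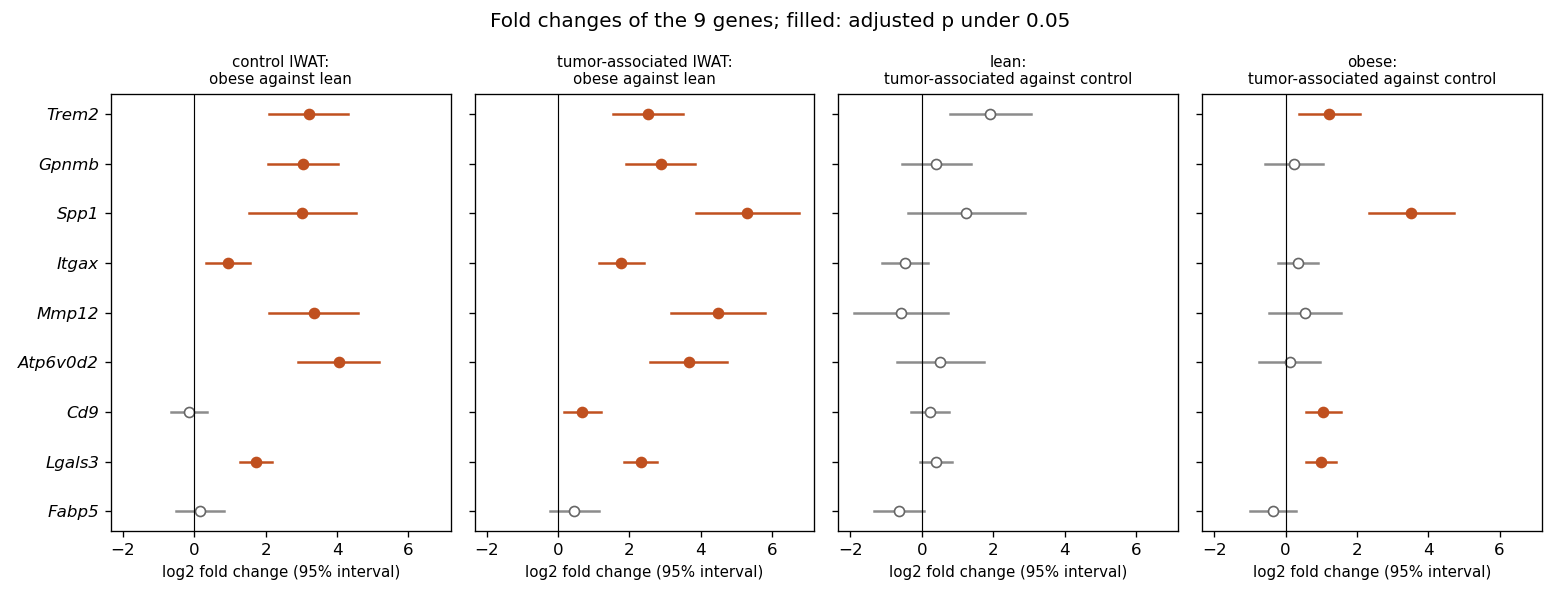
Log2 fold change (horizontal axis) with its 95% interval for each of the 9 genes in 4 comparisons; filled points had an adjusted p under 0.05. Between obese and lean mice 7 genes differed in control IWAT and 8 in tumor-associated IWAT, whereas between the pads 0 differed in lean and 4 in obese mice.

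The tumor effect was compared between diets by subtracting the change in lean mice from that in obese mice. None of the 9 genes passed in edgeR, where 2.58% of all genes were called higher and 2.34% lower. At an unadjusted p under 0.05 the count was 2 (Spp1 and Cd9), and DESeq2 called 1 (Spp1, adjusted p = 0.0472). The Spp1 change was larger in obese mice by 2.28 on the log2 scale (95% interval 0.23 to 4.33, adjusted p = 0.117) and the Cd9 change by 0.82 (95% interval 0.10 to 1.55, adjusted p = 0.111). Without obese tumor-associated mouse 1 both passed, at 2.51 (adjusted p = 0.0499) and 0.98 (adjusted p = 0.0307). Without mice 0, 2 and 4 both fell short by far, at 1.26 (adjusted p = 0.509) and 0.16 (adjusted p = 0.745). The Trem2 change was smaller in obese mice by an amount within its error (-0.69, 95% interval -2.10 to 0.72). A difference between diets in the tumor effect was not shown for any of the 9 genes at this threshold in edgeR.

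Obese control IWAT, a pad with no tumor, was set against lean IWAT next to a tumor. In the obese control pads, 5 genes were higher (Gpnmb, Itgax, Mmp12, Atp6v0d2 and Lgals3) and 0 were lower, with 9.1% of all genes called higher and 7.83% lower. Mmp12 and Atp6v0d2 were 15.3-fold and 11.6-fold higher (adjusted p = 0.000243 and 0.000128). Gpnmb was 6.22-fold higher (adjusted p = 0.000587), and Itgax and Lgals3 were 2.69-fold and 2.50-fold higher (adjusted p = 0.00278 and 0.000276). Trem2 and Spp1 were 2.43-fold and 3.43-fold higher without passing (adjusted p = 0.0595 and 0.0596). Both were called without lean tumor-associated mouse 0, their highest library in that group (adjusted p = 0.01 and 0.0117), without the control pads of obese mice 1 and 3 (0.0464 and 0.0344), and in DESeq2, which called 7 of the 9.

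The group means of Trem2 and Spp1 rose from control to tumor-associated pads of lean mice and on to control and tumor-associated pads of obese mice. For both, the pads of obese mice differed past the threshold. Lean tumor-associated IWAT missed it narrowly for Trem2 against either neighbor (adjusted p = 0.0505 and 0.0595) and for Spp1 against obese control IWAT (0.0596), with 95% intervals that did not reach 0, while Spp1 in the lean pads had an adjusted p of 0.509. Gpnmb, Atp6v0d2 and Lgals3 had the same order of means, with a difference past the threshold between lean tumor-associated and obese control IWAT and, for Lgals3, also between the pads of obese mice. Itgax and Mmp12 were lowest in lean tumor-associated IWAT, and of their neighbors in the order lean and obese control IWAT passed the threshold. Cd9 was lowest in obese control IWAT, and obese tumor-associated IWAT passed against lean tumor-associated IWAT, its neighbor, with the dependence on single libraries given above. For Fabp5 no neighbors that were compared passed.

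Divided by exon length, levels can be set against each other between genes. In lean control IWAT the mean was 64.9 CPM per kilobase for Cd9, 36.6 for Lgals3 and 35.2 for Fabp5, and 4.64 or less for the other 6 genes, down to 0.352 for Trem2. In obese tumor-associated IWAT Lgals3 led at 241 CPM per kilobase, followed by Cd9 and Spp1 at 122 each, both means over libraries that include the high values of mice 0, 2 and 4. Fabp5 and Gpnmb were at 30.8 and 28.8, Mmp12, Atp6v0d2 and Itgax at 17.1, 14.3 and 11.3, and Trem2 was again lowest at 7.54 CPM per kilobase. With the longest transcript as length, Cd9 in that group was 203 and Gpnmb 50.6 CPM per kilobase.

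The 6 obese tumor-associated libraries did not vary as a block. Spp1 was 241 to 391 CPM in mice 0, 2 and 4 and 40.2 to 133 CPM in mice 1, 3 and 8, and Cd9 was 264 to 488 against 122 to 179 CPM. Gpnmb ran the other way, at 102 to 121 CPM in mice 0, 2 and 4 and 215 to 347 CPM in mice 1, 3 and 8. So did Mmp12 (20.3 to 67.4 against 137 to 283 CPM), Atp6v0d2 (8.52 to 22.5 against 44.9 to 70.9 CPM) and Fabp5 (45.3 to 86.8 against 128 to 182 CPM). Trem2, Itgax and Lgals3 overlapped between these libraries. Mice 0, 2 and 4 are those with the highest germline sums, they were set apart by the data and not by the labels, and no test was made between them and the others.

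**Figure D3:**
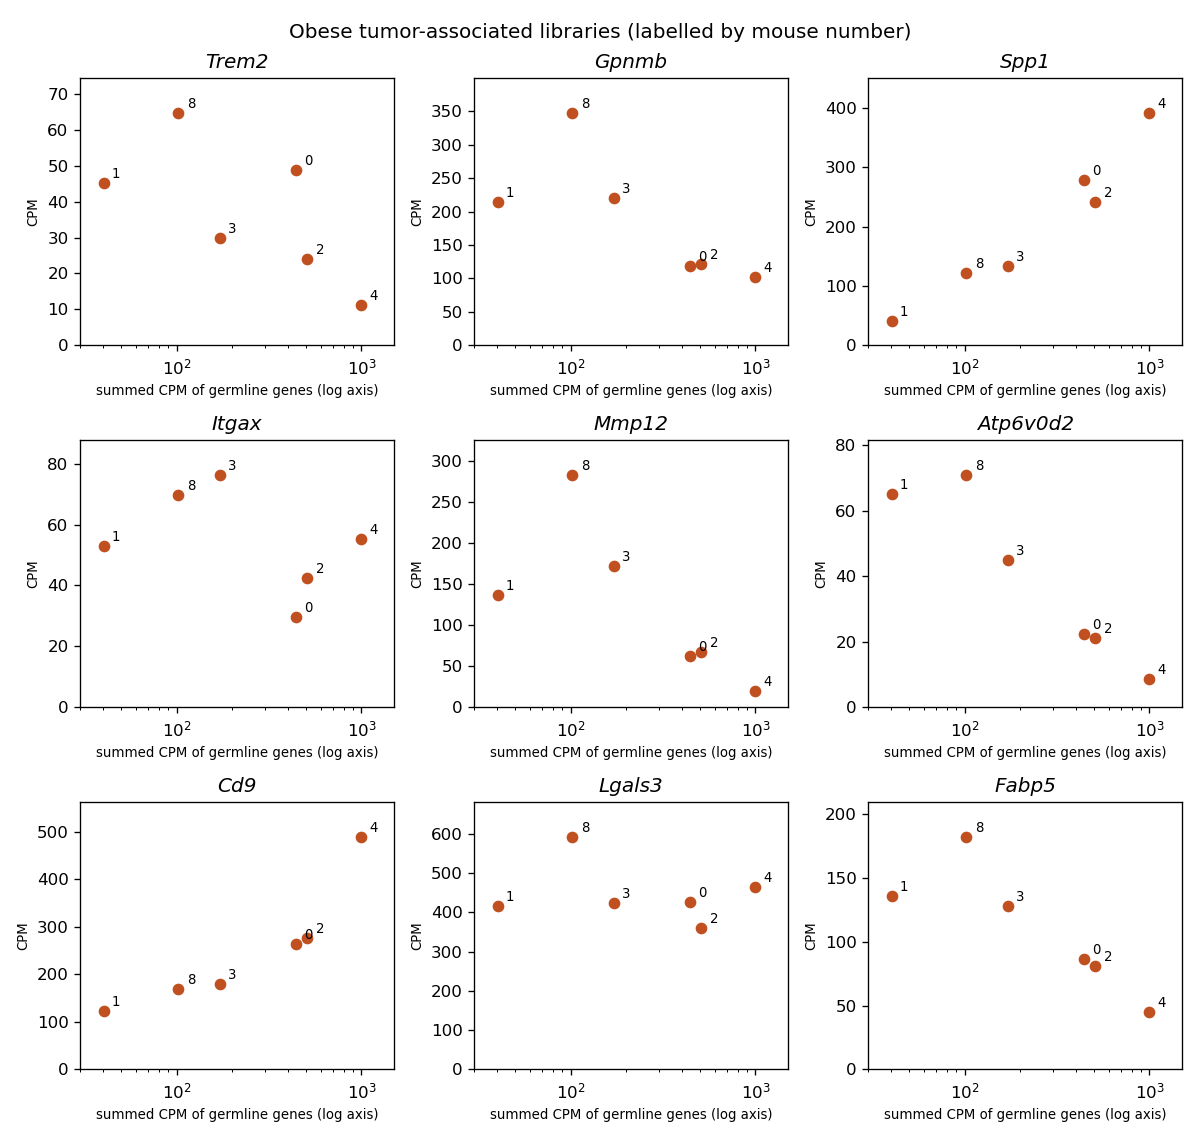
CPM of each of the 9 genes (vertical axis, from 0) in the 6 obese tumor-associated libraries against the summed CPM of 10 germline and embryonic genes in the same library (horizontal log axis), labelled by mouse number. Mouse 4, at 1000 CPM, had the highest Spp1 and Cd9 and the lowest Trem2, Gpnmb, Mmp12, Atp6v0d2 and Fabp5.

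In each of the other groups, the library with the highest germline sum was also the one with the highest Spp1. Among obese control pads, mouse 2 had the highest germline sum, 85.7 CPM against 5.99 to 27.8 CPM in the others, and the highest Spp1. Among lean tumor-associated pads, mouse 0 had the highest sum, 9.09 CPM against 0.622 to 2.58 CPM, and the highest Spp1. Among lean control pads it was mouse 3, at 2.45 CPM against 0.348 to 1.7 CPM. The order below the highest library was not always shared: lean tumor-associated mouse 2 had the lowest germline sum and the second highest Spp1. The part of the germline signal in the Spp1 and Cd9 levels was not tested. Summed adipocyte markers moved as well, at 1570, 3950 and 997 CPM in obese tumor-associated mice 0, 2 and 4 and 4960 to 6030 CPM in mice 1, 3 and 8.

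Macrophage markers in general followed another pattern than the 9 genes. Of 10 pan-macrophage genes, 6 were called higher and 0 lower in tumor-associated IWAT of lean mice, 8 and 0 in that of obese mice, 3 and 0 in obese against lean control IWAT and 5 and 0 in obese against lean tumor-associated IWAT. Their median log2 fold changes in these comparisons were 1.09, 1.28, 0.39 and 0.76, where those of the 9 genes were 0.40, 0.54, 3.02 and 2.51. In the same order, 3.27%, 26.8%, 9.54% and 24.7% of all genes tested were called higher, and 0.913%, 27.7%, 7.53% and 22.4% lower. Emr1, which codes for F4/80, was 2.42-fold higher next to a tumor in lean mice (adjusted p = 0.00472) and 2.96-fold higher in obese mice (adjusted p = 2.74e-05). Cd68, a lysosomal membrane protein of macrophages, was 3.08-fold higher in obese control IWAT (adjusted p = 0.00107). Its mean was also higher next to a tumor, at 18.2 and 55.6 CPM in the control and tumor-associated pads of lean mice and 55.9 and 150 CPM in those of obese mice. The summed level of the 10 genes ran from 536 to 1210 CPM in the control and 1130 to 2140 CPM in the tumor-associated pads of lean mice, and from 937 to 1430 and 1430 to 3250 CPM in those of obese mice.

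Set against that sum, Spp1 alone of the 9 genes had its highest mean in obese tumor-associated IWAT, with its highest values in mice 0, 2 and 4. Per 100 CPM of pan-macrophage genes, Spp1 was 0.266 ± 0.139 (SD, n = 5) and 0.269 ± 0.245 (n = 5) CPM in the control and tumor-associated pads of lean mice, and 1.61 ± 1.5 (n = 6) and 10.1 ± 9.63 (n = 6) CPM in those of obese mice. The tumor-associated pads of obese mice 0, 2 and 4 held 9.32, 14.2 and 27.4, and those of mice 1, 3 and 8 held 1.24, 4.17 and 4.18. Control pads of the same animals held 1.56, 4.56 and 0.868 in mice 0, 2 and 4, and 0.564, 0.632 and 1.48 in mice 1, 3 and 8. The values 4.17 and 4.18 lay within the obese control range of 0.564 to 4.56 through the control pad of mouse 2 alone. Trem2 was 0.221 ± 0.115 and 0.347 ± 0.219 in the lean pads and 1.42 ± 0.613 and 1.4 ± 0.51 in the obese pads, the latter pair nearly level. In obese mice Gpnmb was 14.2 ± 5.47 in the control and 7.28 ± 2.56 in the tumor-associated pads, and Atp6v0d2 was 3.19 ± 1.21 and 1.41 ± 0.709. These ratios are descriptions, since neither the 9 genes nor the 10 markers are made by macrophages alone.

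**Figure D4:**
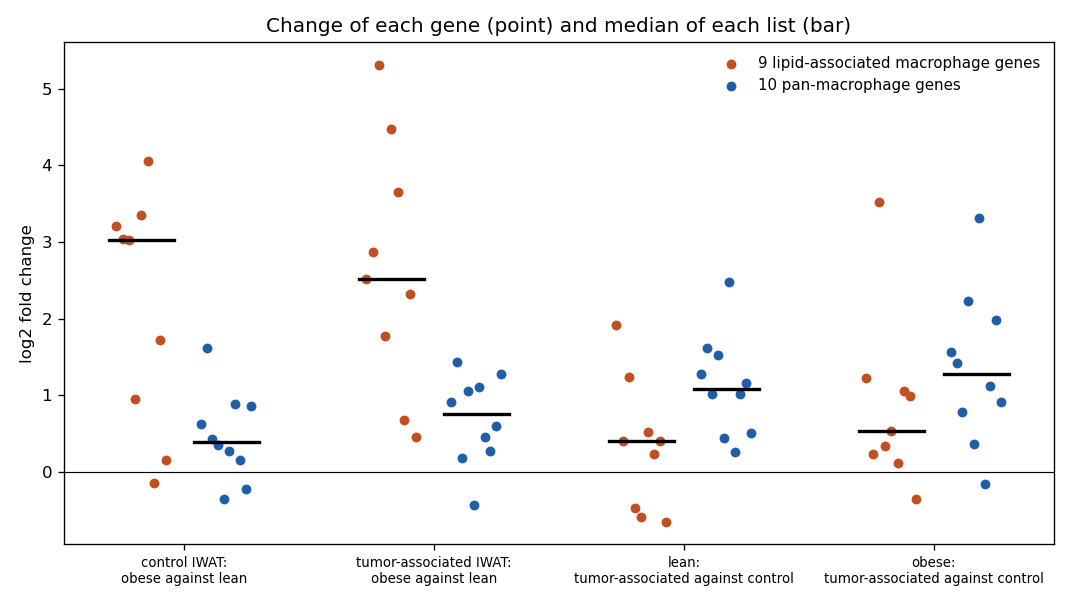
Log2 fold change (vertical axis) of each of the 9 lipid-associated macrophage genes and of 10 pan-macrophage genes in 4 comparisons (horizontal axis), with a black bar at the median of each list. The medians of the 9 genes were 3.02 and 2.51 for diet and 0.40 and 0.54 for the tumor, and those of the pan-macrophage genes 0.39 and 0.76 and 1.09 and 1.28.

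Partners of TREM2 were called by diet in control IWAT through few libraries. Of 6 genes of its adaptors, signaling enzymes and ligand, 3 were called higher in obese control IWAT (Hcst, Syk and Inpp5d, named after their values were seen) and 0 lower, against 9.54% and 7.53% of all genes tested. Without the obese control pads of mice 1 and 3, highest in lymphocyte markers, the count in edgeR was 0 higher and 0 lower, and Hcst, Syk and Inpp5d had log2 differences of 0.21, 0.42 and 0.37 (adjusted p = 0.832, 0.402 and 0.384). Tyrobp, its adaptor, was 29.2, 59.3, 48.3 and 120 CPM on average in the control and tumor-associated pads of lean mice and then of obese mice. It was called higher next to a tumor in lean (2.03-fold, adjusted p = 0.0307) and obese mice (2.49-fold, adjusted p = 0.000189) and missed the threshold for diet in control IWAT (log2 0.73, adjusted p = 0.0523). Apoe, a lipoprotein that binds TREM2, was lower next to a tumor in obese mice (0.630-fold, adjusted p = 0.0347). In that comparison the list of 6 counted 1 higher and 1 lower in edgeR, against 26.8% and 27.7% of all genes tested. Without the tumor-associated pads of mice 0, 2 and 4 it counted 1 higher and 0 lower. Without the control pads of mice 1 and 3 it counted 4 higher and 0 lower. The median log2 fold change of the list was 0.22, 0.54 and 1.02 in these 3 fits. Of the 5 other TREM family receptors 2 could be tested, of which Treml2, also named after its values were seen, was called higher in obese control IWAT (log2 3.90, adjusted p = 0.0201). Its mean there was 13.2 ± 19.5 CPM (SD, n = 6), a spread wider than the mean. Without the control pads of mice 1 and 3 its log2 difference was -0.53 (adjusted p = 0.64). Next to a tumor in obese mice, 0 of the 2 tested receptors were called, and without those control pads 2 of 2 tested were called higher. Trem1 was at or below 1.29 CPM on average in every group and was not tested.

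Among the CD11 and CD18 integrin chains, Itgad, which codes for CD11d, was near 0 in lean pads. It averaged 0.376 and 0.234 CPM in lean control and tumor-associated IWAT and 61.6 and 31.9 CPM in the obese pads (control IWAT log2 7.30, standard error 0.776, adjusted p = 7.58e-06). Itgam (CD11b) was higher next to a tumor in both diets (lean log2 1.52, adjusted p = 0.00167; obese log2 2.23, adjusted p = 1.87e-06) and was not called by diet in control IWAT (log2 0.35, adjusted p = 0.354). Itgb2, the shared CD18 chain, was 2.43-fold higher in obese control IWAT (adjusted p = 0.00421) and 2.05-fold higher next to a tumor in obese mice (adjusted p = 0.00269).

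Over all genes tested, 26.8% were called higher and 27.7% lower next to a tumor in obese mice, and 3.27% and 0.913% in lean mice. Of 7 genes that code for osteopontin receptors, 5 were higher and 1 lower next to a tumor in obese mice, and 2 were higher and 0 lower in lean mice. Without the obese pads of mice 0, 2 and 4 the first count was 4 higher and 0 lower. Cd44, the receptor of hyaluronan and osteopontin, was 3.68-fold higher in obese (log2 1.88, adjusted p = 1.65e-08) and 1.86-fold higher in lean tumor-associated IWAT (log2 0.90, adjusted p = 0.000577). Itgb3 was 1.71-fold higher (adjusted p = 0.000114) and Itgb5 0.742-fold (adjusted p = 0.0102) in obese mice.

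Lipid uptake, storage and cholesterol export genes of foam cells were divided. Of 14, 6 were higher and 0 lower in obese control IWAT, and 6 were higher and 4 lower in obese tumor-associated against control IWAT. Of all genes tested, 9.54% were called higher and 7.53% lower in the first comparison, and 26.8% and 27.7% in the second. Nceh1 and Abcg1 (named after their values were seen), which clear cholesterol esters and export cholesterol, were 3.02-fold and 2.64-fold higher in obese control IWAT (adjusted p = 1.52e-05 and 6.59e-05). Msr1, a scavenger receptor, was 5.37-fold higher and Pla2g7 2.65-fold higher next to a tumor in obese mice (adjusted p = 7.96e-06 and 6.37e-06). Lpl and Fabp4, both abundant in adipocytes, were 0.351-fold and 0.451-fold (adjusted p = 0.000591 and 0.00409), and the 7 adipocyte markers were all lower in the same comparison. Without the pads of mice 0, 2 and 4 the list counted 8 higher and 2 lower, and 6 of the 7 adipocyte markers were lower. The median log2 fold change of the adipocyte markers was -0.94 without those pads and -1.51 with them.

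Other subunits of the proton pump moved in both directions. Of 19 tested, 5 were higher and 2 lower in obese control IWAT, where 9.54% of all genes were called higher and 7.53% lower. Next to a tumor in obese mice 8 were higher and 3 lower, where 26.8% of all genes were called higher and 27.7% lower. In the second comparison Atp6v0d2 itself was not called. Atp6v0d1, the widely expressed form of the same subunit, averaged 76.5, 79.9, 98.5 and 94.9 CPM and was 1.29-fold higher in obese control IWAT (adjusted p = 0.0254), against 16.6-fold for Atp6v0d2. Tcirg1, the pump subunit of osteoclasts, was 2.05-fold higher in obese (adjusted p = 1.66e-06) and 1.46-fold higher in lean tumor-associated IWAT (adjusted p = 0.0142), and Atp6v1g1 was 1.55-fold higher in obese mice. Atp6v1b1 and Atp6v0e2 were lower there, at 0.263-fold and 0.310-fold.

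The MiT/TFE transcription factors, 4 in number, drive lysosomal genes including Gpnmb and Atp6v0d2. Mitf averaged 40.5 to 51.1 CPM across the groups and differed by 0.31 on the log2 scale by diet in control IWAT (adjusted p = 0.29). Tfec was 4.28-fold higher in lean and 4.35-fold higher in obese tumor-associated IWAT (adjusted p = 0.0209 and 0.000526), Tfe3 was 1.41-fold higher and Tfeb 0.672-fold in obese mice. Without the pads of mice 0, 2 and 4, or without the control pads of mice 1 and 3, the obese count of this list was 2 higher and 0 lower.

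Relatives of Cd9, Lgals3, Fabp5 and Mmp12 showed no common direction. In obese tumor-associated against control IWAT, 26.8% of all genes tested were called higher and 27.7% lower. Of 6 tetraspanins, 2 were higher and 2 lower in obese tumor-associated against control IWAT: Cd63, a lysosomal tetraspanin, was 2.17-fold (adjusted p = 1.03e-05) and Cd53 1.90-fold higher, and Cd81 0.547-fold and Cd151 0.635-fold. Of 6 other galectins tested, Lgals9 and Lgals8 were higher (2.18-fold and 1.16-fold) and Lgals12, a galectin of adipocytes, was lower (0.396-fold). Lgals1 was 1.64-fold higher in obese control IWAT (adjusted p = 0.00732). Of 8 other fatty acid binding proteins 2 were tested, and Fabp4 was lower as given above. Without the pads of mice 0, 2 and 4 the tetraspanins counted 2 higher and 1 lower and the galectins 1 and 1, and without the control pads of mice 1 and 3 they counted 3 and 2, and 1 and 1. Of 9 other matrix metalloproteinase genes 3 were tested, and Mmp13 was 7.76-fold higher (adjusted p = 0.000521).

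The genes whose log2 CPM followed each of the 9 most closely over the 22 libraries were ranked by Pearson's r among 14372 genes with a mean of at least 1 CPM. The libraries share diet and pad, and both pads of a mouse, so r describes these samples only. Trem2 was most like Tln1 (0.95), Slc37a2 (0.95) and Adam8 (0.94), and Gpnmb like Tln1 (0.94), Tm4sf19 (0.94) and Cpt1a (0.93). Mmp12 was most like Tm4sf19 (0.94), St18 (0.92) and Itgad (0.92), and Atp6v0d2 like Itgad (0.96), Tln1 (0.96) and Tm4sf19 (0.95). Tm4sf19 also stood among the 3 genes most like Itgax (0.87), after Rgs1 (0.92) and Pde1b (0.88).

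Spp1 was most like Hmga2 (0.98), Nxf3 (0.98) and Pnma5 (0.97), all of which are on the germline and embryonic list. Map1b and Ttll12 were among the genes most like Cd9 (0.96 and 0.95). Lgals3 was most like the lysosomal genes Ctsl (0.98), Atp6v1b2 (0.97) and Cstb (0.96). Fabp5 had the weakest companions, Mmgt1, Ctsd and Lctl (0.86, 0.85 and 0.85).

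Markers of other cells that express some of the 9 genes were measured in the same libraries. The 5 melanocyte markers, for cells that express Gpnmb, summed to at most 3.37 CPM in any library, and Tyrp1 was at 0 in every library. The 7 osteoclast markers, for cells that express Spp1 and Atp6v0d2, summed to 237 to 303 and 196 to 261 CPM in the control and tumor-associated pads of lean mice and to 252 to 447 and 121 to 257 CPM in those of obese mice. Most of that sum was Acp5, Ctsk and Nfatc1, and Calcr, Oscar, Ocstamp and Dcstamp each averaged at most 2.95 CPM in any group. Of the 5 tested, Ocstamp was higher and Acp5 lower next to a tumor in obese mice, and without the pads of mice 0, 2 and 4 the count was 0 higher and 1 lower of 4 tested in edgeR. The 8 dendritic cell markers, for cells that express Itgax, summed to 47.6 to 64.6, 53.7 to 78.0, 43.8 to 164 and 31.5 to 109 CPM in the same order of groups. In obese tumor-associated against control IWAT, 26.8% of all genes tested were called higher and 27.7% lower. There, 8 of 9 epithelial markers were lower and 0 higher, 4 of 6 endothelial markers were lower and 0 higher, and 3 of 6 fibroblast markers were higher and 2 lower. Without the pads of mice 0, 2 and 4 these counts were 5 of 9 epithelial and 2 of 6 endothelial markers lower, and 3 of 6 fibroblast markers higher and 0 lower. Of the neutrophil markers, S100a8, S100a9, Cxcr2, Retnlg and Camp each averaged at most 2.14 CPM in any group, and Ltf, which mammary epithelium also makes, averaged 236 and 277 CPM in the pads of lean and 98 and 70.7 CPM in those of obese mice. The part of any of these cells in the levels of the 9 genes was not tested.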

How the data were processed

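RNA from 22 inguinal pads of 11 mice was sequenced after ribosomal depletion. Per the labels and the methods of the study, the authors trimmed reads with prinseq, aligned them to mm10 with STAR 2.4.0f and used HTSeq to assign them to genes. The table deposited by the authors holds whole-number counts. The strand setting and the annotation are not given in the sources used here. The 5 HTSeq total lines were left out of library sizes; among counted reads, 38.5% to 48.8% lay in no gene and 15.1% to 18.9% did not align uniquely.

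From these counts, edgeR 4.0.16 in R 4.3.3 was run with TMM scaling, its filter on low counts by group and the quasi-likelihood test in 1 fit over all 22 libraries, with Benjamini-Hochberg adjustment over the 14458 genes tested and a threshold of 0.05. Adjusted p-values in the text are from this test unless DESeq2 (1.42.0) is named. A standard error is the log2 fold change divided by the square root of F. Both pads of a mouse carry its number; deviations from group means of such pads correlated at 0.112 to 0.626 in lean (5 of 5 over 0.1) and -0.0719 to 0.640 in obese mice (4 of 6 over 0.1), and the mouse as a block was an alternative fit. Libraries of different mice are biological replicates, and none were copies of another (smallest chi-square per degree of freedom 5.69 over 50 pairs).

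The 9 genes and all marker lists were chosen with earlier results of these data known. Outside the 9 genes and a fixed set of partners, the genes named are the 2 called genes of each list that rose most and the 2 that fell most in obese tumor-associated against control IWAT, and the 3 genes most like each of the 9, of which 1 is not reported here. Hcst, Syk, Inpp5d, Treml2, Nceh1 and Abcg1 fall outside this rule and were named after their values were seen, and marker genes of other cells are named where 1 or a few carried a sum. Other alternatives were DESeq2, upper-quartile scaling, no filter, a minimum of 10 counts in every library, a fit of the compared groups alone, and leaving out each library, mouse or set of doubted libraries. The edgeR fit, with and without the mouse as a block, and the DESeq2 fit were first tested on simulated counts. Shared stretches were found with BLAST 2.17.0. Intervals are at 95%.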

Additional observations from a re-analysis of the deposited data

Results flagged for a closer look

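Of 36 groups of values checked (9 genes in 4 groups), 2 held a library far from the rest by Dixon's test, where chance alone gives about 1 in 20 groups. Both were Spp1. In lean tumor-associated IWAT, mouse 0 held 14.8 CPM against 1.16 to 4.04 CPM in the other 4 mice, a gap of 0.789 of the group's range. In obese control IWAT, mouse 2 held 45.5 CPM against 7.75 to 17.6 CPM in the other 5 mice, a gap of 0.738 of the range. Each was also the library with the highest germline sum of its group, at 9.09 and 85.7 CPM, and the part of that signal in Spp1 was not tested. For 0 of the 9 genes did every mouse rise in one diet and fall in the other.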

How the results depend on the processing

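With DESeq2, 1 of the 9 genes was called higher in lean tumor-associated against control IWAT (Trem2) and 1 in the difference of changes (Spp1), each 0 in edgeR. With at least 10 counts in every library, 5 of the 9 could be tested, and the counts called higher were 2 for the tumor in obese mice, 3 and 4 for diet in control and tumor-associated IWAT and 3 for obese control against lean tumor-associated IWAT. In a fit of the compared groups alone 1 was called in lean mice. Without the 3 obese pads highest in germline genes, 1 was called in lean mice and 8 were called for obese control against lean tumor-associated IWAT. That setting turned Fabp5 in obese mice to 0.0838 and the difference of changes of Gpnmb to 0.3235 and of Atp6v0d2 to 0.2454 (log2). With the mouse as a replicate block, Atp6v0d2 in obese mice was -0.0855, and the pairing changed no call of the 9 genes. Without the 2 obese control pads highest in lymphocyte markers, a setting chosen after seeing the data, Atp6v0d2 in obese mice was -0.0604 and Cd9 by diet in control IWAT 0.0398.

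Leaving out 1 library or mouse gave 0 to 1 genes called higher in lean mice and 0 to 2 in the difference of changes. Of log2 values that changed sign, none called, Gpnmb ran from -0.0051 to 0.7159 in lean and -0.0317 to 0.4113 in obese mice, Atp6v0d2 from -0.0158 to 0.7809 in lean and -0.1368 to 0.3234 in obese mice, and Fabp5 by diet in control IWAT from -0.0002 to 0.4524. The differences of changes ran from -1.0187 to 0.1141 for Trem2, -0.479 to 0.2358 for Gpnmb and -0.6598 to 0.1369 for Atp6v0d2.

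Over all genes, calls for the difference of changes numbered 711, against 2365 in DESeq2, 18 without a filter and 10 without the 3 obese pads. Calls for the lean tumor effect numbered 605, against 918 in DESeq2, 1437 in the compared groups alone and 1369 without the 3 pads. Without those pads calls went from 7882 to 4849 for the tumor in obese mice, from 2468 to 4057 and 6802 to 4432 for diet in control and tumor-associated IWAT, and from 2448 to 4049 for obese control against lean tumor-associated IWAT. Depth limits Trem2, Spp1, Mmp12 and Atp6v0d2 in lean pads, where counts went down to 7 to 9.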
